A study of Mus musculus with 6 samples.

Results

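Aminoacyl-tRNA synthetases are the enzymes that join each amino acid to its transfer RNA (tRNA), the step that sets the genetic code and supplies the ribosome. The nuclear genome encodes one set for the cytosol and another for mitochondria, and a few genes serve both compartments. Uncharged tRNA activates the kinase GCN2, which restrains translation initiation and lets the transcription factor ATF4 be made. Many cytosolic synthetase genes are known targets of ATF4 in other cells, and pro-B cells, which divide quickly, need charged tRNA for growth.

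The genes were chosen by symbol: a capital letter followed by "ars", with or without a final 1 or 2, together with Eprs, Farsa and Farsb. The rule found 37 of the 54752 gene identifiers listed in each table. Of these, 20 were placed in the cytosolic group and 17, whose symbols end in 2, in the mitochondrial group. Gars and Kars, in the cytosolic group, each encode the enzyme of both compartments. The rule itself used no measured value, but the members were chosen with earlier results of these data known.

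Messenger RNA was measured in pro-B cells, the precursors that rearrange the immunoglobulin heavy chain, sorted by flow cytometry from bone marrow of adult C57BL/6 mice. The 3 controls carried floxed Skiv2l alleles (Skiv2lfl/fl) with no Cre named in the labels, although their titles call them WT. The 3 Skiv2l-deleted mice carried the same floxed alleles with Cd79a-Cre (Skiv2lfl/fl-Cd79a-Cre), a driver active in the B lineage, so an effect of Cre cannot be told apart from that of the deletion. The SKIV2L protein is an RNA helicase that passes transcripts to the exosome for decay in the cytosol. Each library came from 1 mouse and corresponded to 1.74 to 2.40 Gb of aligned bases.

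Skiv2l stood at 25.4, 20.2 and 46.3 FPKM (fragments scaled to transcript length and library size, as deposited, over the whole gene) in controls 1 to 3 and at 9.53, 16.1 and 10.9 FPKM in Skiv2l-deleted 1 to 3, with no overlap (log2 fold change −1.21, limma adjusted p = 0.063). Libraries control 3 and Skiv2l-deleted 2 stood apart from the other 4 on the second principal component, which held 33.1% of the variance. The 8 myeloid markers checked summed to 1264 FPKM in control 3 and 2244 FPKM in Skiv2l-deleted 2, against 82.7 to 405 FPKM in the other 4. Results are therefore also given for those 4 libraries alone. Of 13 pro-B markers all 13 passed the expression filter, 7 rose and 1 fell, and their summed level was 3023 to 4231 FPKM in controls against 4689.6 to 5833 FPKM.

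All 37 synthetase genes reached 1 FPKM in at least 3 of the 6 libraries and entered the limma fit of log2(FPKM + 1) with 13539 genes. In all, 8 of the 37 were called, where 8.84% of all tested genes were. Of the 20 cytosolic genes, 7 rose in Skiv2l-deleted cells at a limma adjusted p below 0.05 and 0 fell, where 4.97% of all tested genes rose and 3.87% fell (673 and 524 genes, or 559 and 664 with median-centred values). At an unadjusted limma p below 0.05 the cytosolic counts were 14 higher and 0 lower, where 15.7% of all tested genes were higher and 9.85% lower. In the mitochondrial group 1 of 17 rose and 0 fell (4 and 1 at an unadjusted limma p below 0.05). The median log2 fold change, Skiv2l-deleted minus control, was 0.43 for cytosolic and 0.19 for mitochondrial genes, beside 0.06 over all tested genes. The cytosolic range ran from −0.19 (Qars) to 0.94 (Sars). The groups are sorted cells measured in bulk, so more RNA per cell and more cells of a given kind cannot be told apart.

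**Figure D1:**
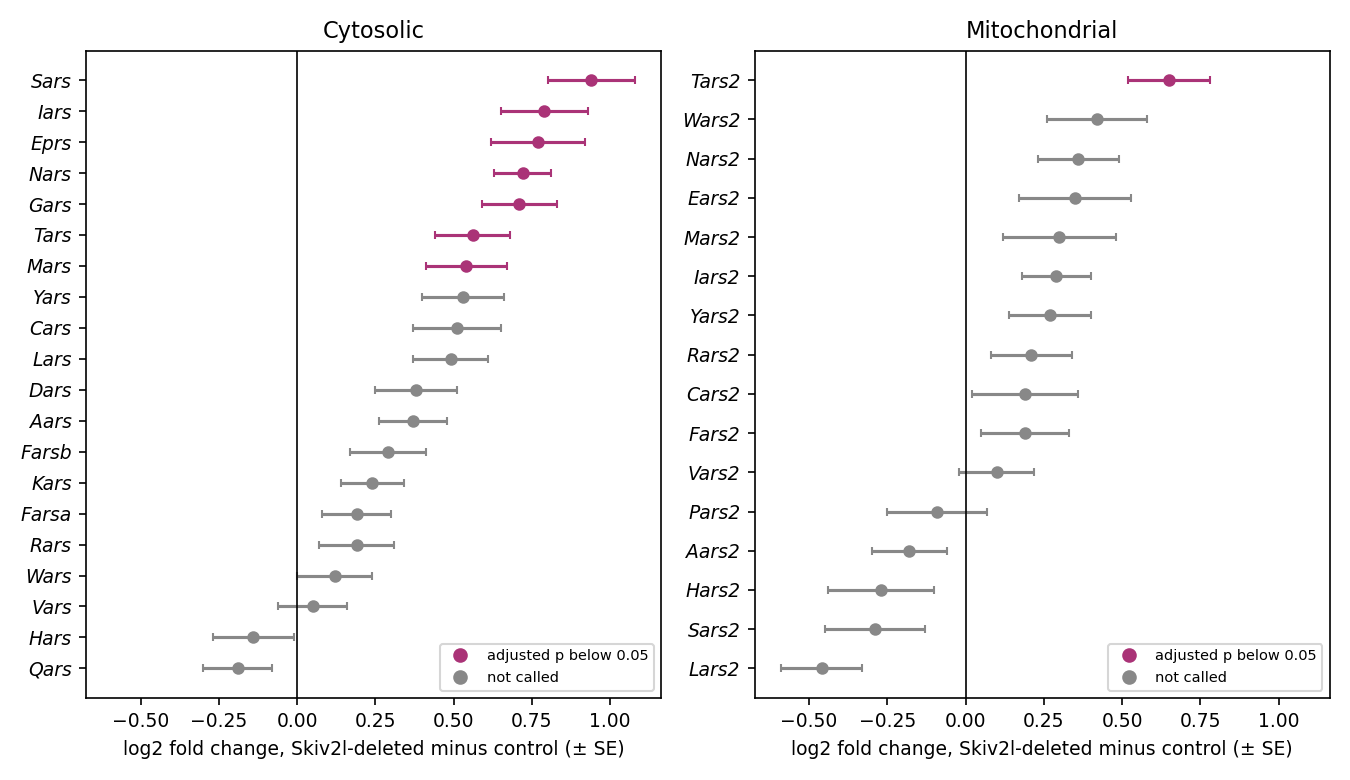
Log2 fold change (Skiv2l-deleted minus control, on log2(FPKM + 1), x axis) of the 20 cytosolic (left) and 16 of the 17 mitochondrial (right) synthetase genes, with bars of ± 1 SE from limma on 6 libraries and genes ordered by fold change. The 7 cytosolic genes called and Tars2 are coloured; Qars and Hars are the cytosolic genes below 0.

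Sars, the seryl-tRNA synthetase gene (chromosome 3, 108424865 to 108445209, GRCm38, minus strand), had the largest difference. Its level was 28.8, 29.2 and 37.8 FPKM in the controls and 60.3, 57.6 and 68.1 FPKM in the Skiv2l-deleted libraries. Mean levels were 31.9 ± 5.08 in controls and 62.0 ± 5.46 FPKM after deletion (SD, n = 3). The log2 fold change was 0.94 ± 0.14 (SE, limma adjusted p = 0.0122). Each Skiv2l-deleted library lay above each control. Sars charges serine tRNA and also the selenocysteine tRNA.

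Nars, the asparaginyl-tRNA synthetase gene (chromosome 18, 64499665 to 64516557, minus strand), had the smallest adjusted p of the family. Controls read 41.2, 43.4 and 43.9 FPKM and Skiv2l-deleted libraries 72.0, 67.4 and 74.3 FPKM. The difference was 0.72 ± 0.09 on the log2 scale (SE, limma adjusted p = 0.00935), again with no overlap between the groups. The enzyme uses asparagine, the product of asparagine synthetase.

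Iars and Eprs belong to the multi-synthetase complex, a cytosolic assembly of several synthetases. Iars, for isoleucine (chromosome 13, 49682100 to 49734267, plus strand), read 27.0, 32.6 and 25.7 FPKM in controls against 54.8, 44.0 and 51.2 FPKM. Its log2 fold change was 0.79 ± 0.14 (SE, limma adjusted p = 0.0182). Eprs, a single protein that charges both glutamate and proline tRNA (chromosome 1, 185363044 to 185428360, plus strand), read 27.8, 33.2 and 26.1 FPKM against 57.5, 42.8 and 50.4 FPKM, a log2 fold change of 0.77 ± 0.15 (SE, limma adjusted p = 0.0252). In both genes Skiv2l-deleted 2 was the lowest of its group and still above every control.

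Gars, for glycine in both compartments (chromosome 6, 55038007 to 55079500, plus strand), stood at 41.7, 45.8 and 54.8 FPKM in controls and at 77.7, 75.9 and 78.8 FPKM in Skiv2l-deleted cells. That is a log2 fold change of 0.71 ± 0.12 (SE, limma adjusted p = 0.0194), with a spread in the Skiv2l-deleted group of only 1.47 FPKM (SD, n = 3). Tars, for threonine (chromosome 15, 11382301 to 11399665, minus strand), read 20.9, 19.5 and 23.5 FPKM against 32.3, 29.4 and 34.0 FPKM. It rose by 0.56 ± 0.12 on the log2 scale (SE, limma adjusted p = 0.0314). The groups did not overlap in either gene.

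Mars, for methionine and part of the multi-synthetase complex (chromosome 10, 127296221 to 127311786, minus strand), was the weakest of the 7 calls. It read 29.4, 33.1 and 26.3 FPKM in controls and 46.9, 38.4 and 45.3 FPKM in Skiv2l-deleted libraries, a log2 fold change of 0.54 ± 0.13 (SE, limma adjusted p = 0.0484). Its call held in 4 of 18 alternative analyses and in 0 of the 6 that left out 1 library, with limma adjusted p from 0.0305 to 0.195. Mars overlaps by 68 bases the opposite-strand gene Ddit3, which encodes the stress factor CHOP and itself rose (log2 fold change 1.07 ± 0.24 SE, limma adjusted p = 0.0405). The sources used here do not say whether the authors' quantification used strand, so reads in those 68 bases are uncertain.

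**Figure D2:**
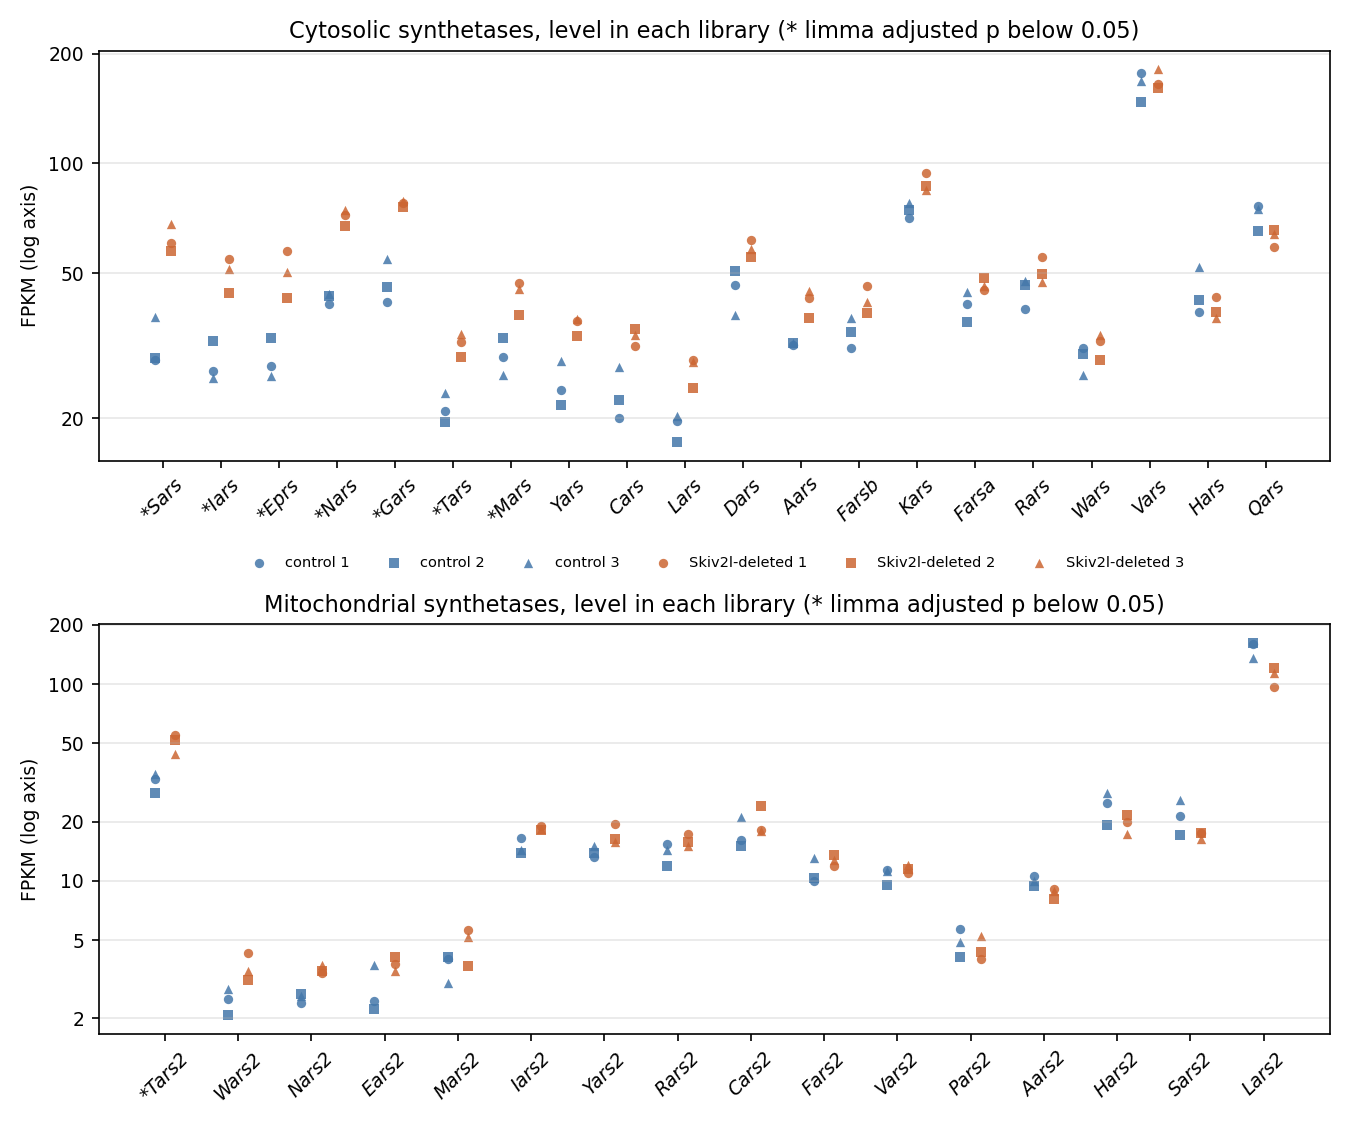
FPKM (log axis) of the 20 cytosolic (above) and 16 of the 17 mitochondrial (below) synthetase genes in each of the 6 libraries, ordered by fold change; each point is 1 library and an asterisk marks a limma adjusted p below 0.05. The called genes show 3 Skiv2l-deleted points above 3 control points, while Vars, the highest cytosolic gene, and Lars2, the highest mitochondrial gene, do not share that pattern.

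The calls varied with the libraries used. With Skiv2l-deleted 1 or Skiv2l-deleted 3 left out, 0 of the 37 genes were called, while 11 and 10 cytosolic genes were higher at an unadjusted limma p below 0.05 and 0 lower. Over all tested genes, 10.3% and 10.2% were higher at that unadjusted p. The limma adjusted p of the 8 called genes then lay between 0.0587 and 0.195 and between 0.0612 and 0.193, and over all genes 184 and 179 were called. Without control 1 only Nars was called, and without control 2 or Skiv2l-deleted 2 the same 4 genes were (Nars, Eprs, Iars and Sars). Of all tested genes, 2.86% were called without control 1, 3.55% without control 2 and 5.01% without Skiv2l-deleted 2. With control 3 and Skiv2l-deleted 2 both left out, 11 cytosolic genes rose, adding Aars, Cars, Lars and Yars to the 7, while the share of all tested genes called also rose, from 8.84% to 13.0%. The direction of all 8 called genes was the same in each of 18 alternatives. Since the groups did not overlap in these 8 genes, leaving out libraries could not have reversed it.

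Among the 13 cytosolic genes that were not called, 8 had no overlap between the groups and stood higher in Skiv2l-deleted cells, which makes 15 of 20 cytosolic genes where 19.9% of all tested genes did so. Nearest to the threshold were Yars, Lars and Cars. Yars, for tyrosine, read 23.9, 21.7 and 28.7 FPKM in controls and 36.9, 33.5 and 37.5 FPKM in Skiv2l-deleted libraries (log2 fold change 0.53 ± 0.13 SE, limma adjusted p = 0.0518). Lars, the leucine enzyme whose protein also takes part in leucine sensing for mTORC1, read 19.7, 17.2 and 20.3 against 28.9, 24.2 and 28.6 FPKM (0.49 ± 0.12, limma adjusted p = 0.0533). Cars, for cysteine, read 20, 22.5 and 27.6 against 31.5, 35.1 and 33.8 FPKM (0.51 ± 0.14, limma adjusted p = 0.0671). These 3 genes were each called in 3 of the 18 alternatives. Lars shares 438 bases with the opposite-strand gene Rps19-ps4 (0.38, limma adjusted p = 0.196), so reads in those bases are uncertain.

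Aars, for alanine, had very even controls at 31.7, 32.2 and 32.1 FPKM and read 42.8, 37.6 and 44.7 FPKM in Skiv2l-deleted cells, a log2 fold change of 0.37 (limma adjusted p = 0.0764). The other non-overlapping genes were Dars (aspartate, 0.38), both subunits of the cytosolic phenylalanine enzyme, Farsb (0.29) and Farsa (0.19), and Kars (lysine, 0.24), with limma adjusted p from 0.121 to 0.338. The groups overlapped in Rars (arginine), Wars (tryptophan), Vars (valine), Hars (histidine) and Qars (glutamine). Qars and Hars had log2 fold changes below 0 (−0.19 and −0.14, limma adjusted p = 0.322 and 0.574). Vars, the most abundant cytosolic member per transcript length at 147 to 181 FPKM in the 6 libraries, had a value of 0.05 ± 0.11 that turned below 0 in 3 of the 18 alternatives, one of them the median-centred scaling.

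The cytosolic genes were also divided by lists drawn up from general knowledge. Those lists were written with earlier results of these data known, so the divisions are descriptions and were not tested. Of 12 genes listed as ATF4 targets in other cells, 7 rose, 0 fell and 5 were not called, where 4.97% of all tested genes rose. Their median log2 fold change was 0.55, and all 12 values were above 0. The 8 other cytosolic genes (Dars, Farsa, Farsb, Hars, Kars, Qars, Rars and Vars) held 0 calls, 3 at an unadjusted limma p below 0.05, and a median of 0.19. The 8 members of the multi-synthetase complex gave 3 calls and a median of 0.43, and the 12 genes outside it 4 calls and a median of 0.44. Class I enzymes, with the Rossmann fold catalytic domain, gave 2 of 9 calls (median 0.49), and class II enzymes 4 of 10 (median 0.37). Eprs, which joins a class I and a class II enzyme, stood in neither list.

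Promoters were searched because 7 genes moved together and because ATF4 with a C/EBP partner binds a known composite element whose core reads TGATGNAA (TTNCATCA on the other strand). RefSeq windows of 300 bases, of which 250 lie before the transcription start, were available for 27 of the 37 genes (GRCm38.p6). Those without a window included Nars, Cars, Lars, Rars, Wars, Vars, Hars, Pars2 and Hars2. The letters occurred in 5 of 13 cytosolic genes with a window (38.5%), in 0 of 14 mitochondrial genes, which have 15 windows, and in 3.97% of all 32851 windows. The matches lay in Gars, Tars and Iars, which rose, and in Aars and Yars, which did not pass the test. Eprs, Mars, Sars and Tars2, which rose, had no match in this window. The Tars2 window (chr3:95754928-95755227, minus strand) lies inside the gene as measured, whose 5′ end is at 95760206. The Aars window (chr8:111033592-111033891) also lies inside the measured gene, which begins at 111033144. So does the window of Qars, which had no match (chr9:108507755-108508054, plus strand, measured gene from 108507706). Bases before those measured ends were not searched. Below, 5′ to 3′ on the gene's strand, capitals mark the match, and the stretches are shown because they carry that match beside the change in level. The first 3 stretches lie before the start, and the others span the start and are limited to 30 bases.
Gars (chr6:55037911-55038000, plus strand, match at −30 from the start): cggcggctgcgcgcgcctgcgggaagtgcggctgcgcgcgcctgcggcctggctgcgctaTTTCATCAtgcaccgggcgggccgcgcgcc
Tars (chr15:11399659-11399748, minus strand, match at −15): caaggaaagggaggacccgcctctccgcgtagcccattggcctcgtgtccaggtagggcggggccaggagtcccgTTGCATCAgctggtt
Aars (chr8:111033689-111033778, plus strand, match at −112): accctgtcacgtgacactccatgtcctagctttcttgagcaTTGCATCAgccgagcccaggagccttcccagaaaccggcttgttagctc
Iars (chr13:49682126-49682155, plus strand, match at 8): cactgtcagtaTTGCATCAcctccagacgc
Yars (chr4:129189895-129189924, plus strand, match at 4): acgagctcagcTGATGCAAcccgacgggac

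Aars held another match at 10 bases after its start, and the stretch printed for it also holds the E-box letters, cacgtg, near its 5′ end. The E-box, which MYC and related factors bind, occurred in 4 of these 13 cytosolic genes (30.8%), in 1 of the 14 mitochondrial genes (7.14%) and in 7.15% of all windows. A match in these windows describes letters only and was not tested for binding.

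In the mitochondrial group, Tars2 (chromosome 3, 95739976 to 95760206, minus strand) was the only gene called. It read 32.8, 27.9 and 34.8 FPKM in controls and 55.3, 51.8 and 44.3 FPKM in Skiv2l-deleted libraries, with means of 31.8 ± 3.56 and 50.5 ± 5.61 FPKM (SD, n = 3). The log2 fold change was 0.65 ± 0.13 (SE, limma adjusted p = 0.0302), and the call held in 11 of 18 alternatives but in 1 of the 6 omissions of 1 library, that of control 3 (limma adjusted p = 0.0244, against up to 0.134 in the others). Tars2 read higher than Tars in each library.

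Lars2, the mitochondrial leucine enzyme gene (chromosome 9, 123366927 to 123462666, plus strand), stood far above the rest of its group. Its controls read 159.5, 162 and 136 FPKM and its Skiv2l-deleted libraries 96.9, 121 and 114 FPKM, with no overlap. The log2 fold change of −0.46 ± 0.13 (SE) did not pass (limma adjusted p = 0.0705). It was called lower in 3 of 18 alternatives: the 4 libraries (0.0289), without control 3 (0.0379) and with median-centred values (limma adjusted p = 0.048). Reads of ribosomal RNA were checked through Gm42418, a gene model that overlaps ribosomal RNA. It read 108, 23.9 and 545 FPKM in controls and 15.3, 173 and 21.7 FPKM in Skiv2l-deleted libraries. Gm42418 was highest in control 3, where Lars2 was lowest among controls, and within the Skiv2l-deleted group in Skiv2l-deleted 2, where Lars2 was highest. The other gene models checked were AY036118 (224, 228 and 355 against 203, 554 and 126 FPKM) and Gm26917 (42.6, 38.7 and 157 against 44.8, 98.8 and 56.2 FPKM). The part of such reads in the Lars2 values was not tested. Lars2 made up 38.5% to 47.7% of the summed FPKM of the 17 mitochondrial genes in controls, against 29.4% to 35.1% after deletion. The next gene in the group, Tars2, had a control mean of 31.8 FPKM, and 6 of the 17 had control means under 10 FPKM.

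Apart from Tars2, the mitochondrial partners of the called cytosolic genes did not pass. Sars2 read 21.4, 17.1 and 25.6 FPKM in controls and 17.4, 17.4 and 16.3 FPKM in Skiv2l-deleted cells (log2 fold change −0.29, limma adjusted p = 0.3). Iars2 read 16.5, 13.9 and 14.4 against 18.9, 18.1 and 18.4 FPKM (0.29, limma adjusted p = 0.159), and Nars2 read 2.39, 2.66 and 2.60 against 3.42, 3.47 and 3.73 FPKM (0.36, limma adjusted p = 0.135). In both of these the groups did not overlap although the test was not passed. Iars2 shares 2034 bases with the opposite-strand gene Rab3gap2, so reads in those bases are uncertain. Rab3gap2 read 13.6 to 15.1 FPKM in controls against 16.3 to 18.4 FPKM (0.24, limma adjusted p = 0.23). Ears2, for glutamate, read 2.45, 2.22 and 3.73 against 3.76, 4.09 and 3.48 FPKM, and Pars2, for proline, 5.69, 4.11 and 4.89 against 4.01, 4.37 and 5.26 FPKM. Mars2 read 3.99, 4.09 and 3.04 against 5.65, 3.68 and 5.18 FPKM. The groups overlapped in these 3 genes.

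Beside Tars2, Iars2 and Nars2, the groups did not overlap in Wars2 (tryptophan, 0.42) and Yars2 (tyrosine, 0.27), both higher in Skiv2l-deleted cells, which makes 5 of 17 against 19.9% of all genes. They did not overlap in Lars2 and Aars2 (alanine, −0.18) in the other direction, 2 of 17 against 12.3% of all genes. The log2 fold changes of Hars2 (−0.27), Vars2 (0.10), Cars2 (0.19), Fars2 (0.19) and Rars2 (0.21) came from overlapping groups. Hars and Hars2, which lie head to head on opposite strands and overlap by 198 bases, both had values below 0.

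Summed over the group, cytosolic synthetase genes reached 864.5, 857 and 913.8 FPKM in controls and 1144, 1059 and 1141 FPKM in Skiv2l-deleted libraries, a 1.27-fold difference of means. Each Skiv2l-deleted library lay above each control. Mitochondrial genes summed to 360.6, 340.2 and 354.2 FPKM against 330.1, 350.1 and 325.6 FPKM, 0.95 of the control mean, and the groups overlapped. Without Lars2, a choice made after its share of the sum was seen, the mitochondrial sums were 201.1, 178 and 217.9 FPKM against 233.2, 228.8 and 211.3 FPKM, 1.13-fold higher with overlap. The ratio of cytosolic to mitochondrial sums was 2.40, 2.52 and 2.58 in controls and 3.47, 3.03 and 3.50 in Skiv2l-deleted libraries. Without Lars2 that ratio was 4.30, 4.81 and 4.19 against 4.91, 4.63 and 5.40, and the groups overlapped. No test was run on these sums.

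The cytosolic and mitochondrial genes for the same amino acid gave 18 pairs. Eprs and Fars2 each stand in 2 of them, so the pairs are not independent. The ratio of cytosolic to mitochondrial FPKM was higher in every Skiv2l-deleted library than in every control in 7 pairs and lower in 0. Among single genes, 19.9% of all tested were higher without overlap, and the share among ratios of other genes was not computed. On log2(FPKM + 1), which weighs low genes less, the groups did not overlap in 9 pairs, adding Mars with Mars2 and Yars with Yars2. With 3 against 3 libraries the exact two-sided permutation test, run on that log2 scale, cannot go below 0.1, which those 9 pairs reached. No single pair could therefore be called, and adjustment over the 18 pairs gives no smaller value. For serine the ratio of Sars to Sars2 was 1.35, 1.71 and 1.47 in controls and 3.47, 3.31 and 4.19 in Skiv2l-deleted cells. For leucine, Lars stood below Lars2 throughout, at 0.123, 0.106 and 0.149 of it in controls and 0.298, 0.2 and 0.251 in Skiv2l-deleted cells. For threonine the ratio was 0.637, 0.698 and 0.674 against 0.583, 0.567 and 0.767, with overlap.

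**Figure D3:**
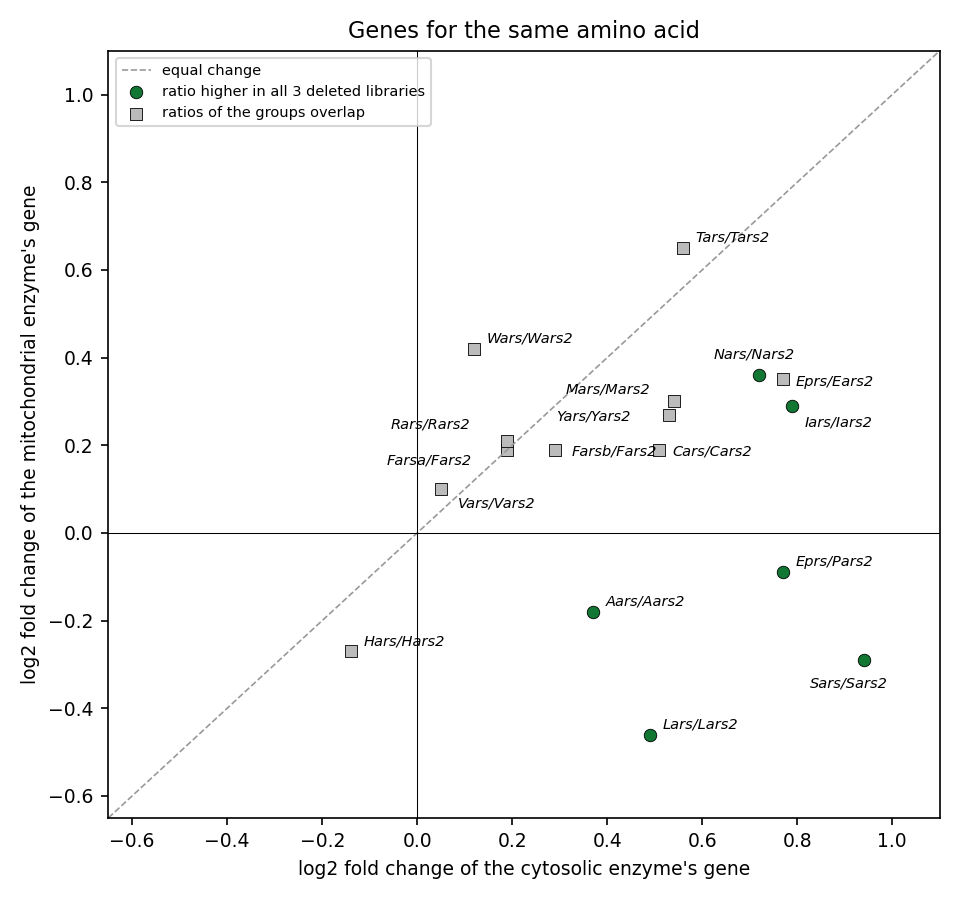
Log2 fold change of the cytosolic gene (x axis) against that of the mitochondrial gene (y axis) for 17 of the 18 pairs that charge the same amino acid; circles mark pairs whose FPKM ratio was higher in all 3 Skiv2l-deleted libraries than in all 3 controls, squares the others, and the dashed line equal change. The 6 circles drawn lie below the line, with Sars and Sars2 farthest from it at 0.94 and −0.29, while Tars and Tars2 lie near it.

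Other genes of tRNA charging were taken from lists drawn up from general knowledge. The 3 scaffold genes of the multi-synthetase complex, Aimp1, Aimp2 and Eef1e1, had values of 0.26, 0.40 and 0.26 with 0 called (limma adjusted p from 0.112 to 0.265). Of 11 tRNA processing and export genes 1 rose and 1 fell, at a median of 0.03. Xpot, which exports tRNA from the nucleus, rose from 9.70, 12.2 and 11.1 to 23.6, 17.9 and 20.2 FPKM (log2 fold change 0.84 ± 0.14 SE, limma adjusted p = 0.0187). Rtcb, the ligase that joins tRNA exons and also the Xbp1 message, fell (−0.46, limma adjusted p = 0.046). Among 5 synthetase-like and editing genes, Dtd1, which removes D-amino acids from tRNA, rose (0.61, limma adjusted p = 0.0399) and Prorsd1, related to a prolyl-tRNA editing domain, fell (−0.57, limma adjusted p = 0.0339). Rtcb, Dtd1 and Ddit3, and the uncalled genes given singly, were named after their values were seen.

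In RNA polymerase III transcription, the source of tRNA, 0 of 23 genes were called and the median was 0.00. None of 6 genes that deliver charged tRNA to the ribosome was called (median 0.11), although Eef1a1, the main delivery factor, read 3173, 3288 and 3180 FPKM against 4193, 4206 and 4337 FPKM (0.40, limma adjusted p = 0.08). The 5 selenocysteine genes and the 4 mitochondrial transamidation and formylation genes gave 0 calls. Transamidation makes glutaminyl-tRNA in mitochondria, which have no glutamine enzyme of their own, and its subunit gene Qrsl1 read 28.6, 20.8 and 33.9 FPKM in controls and 17.8, 16.5 and 17.4 FPKM in Skiv2l-deleted cells (−0.63, limma adjusted p = 0.0736). Of the genes that sense uncharged tRNA, Eif2ak4, which encodes GCN2, had a value of 0.36 (limma adjusted p = 0.119), and 0 of 3 were called.

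Of 18 tested genes of ATF4 and its targets outside the synthetases, 11 rose and 0 fell, at a median of 0.91. Over all tested genes 4.97% rose, and this list too was written with earlier results of these data known. The largest were Asns (3.49), Trib3 (2.87), Atf5 (2.54) and Chac1 (2.11), and the serine pathway genes Phgdh (1.27), Shmt2 (1.19) and Psph (0.91), the amino acid transporter genes Slc7a5 (1.39) and Slc3a2 (0.72) and the stress gene Sesn2 (0.91) rose with them. The 7 not called included Psat1, also of the serine pathway (0.42, limma adjusted p = 0.0969), and Mthfd2 (0.55, limma adjusted p = 0.0586). Another was the transporter gene Slc7a11, whose value lay below 0 (−0.18, limma adjusted p = 0.486). Atf4 itself read 135, 118 and 219.6 FPKM in controls and 168, 174 and 189 FPKM in Skiv2l-deleted cells (0.22, limma adjusted p = 0.607).

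**Figure D4:**
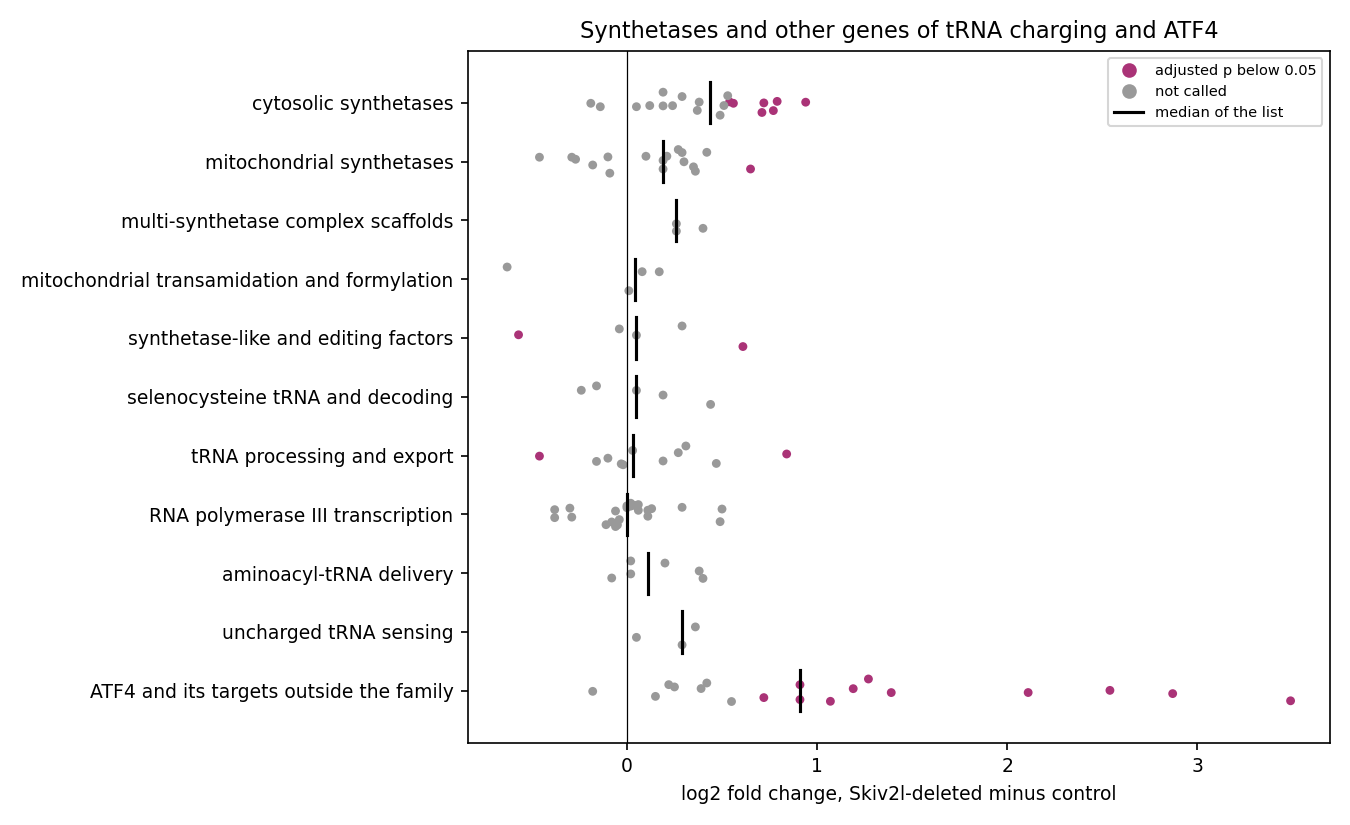
Log2 fold change (x axis, Skiv2l-deleted minus control) of each tested gene in the cytosolic and mitochondrial synthetase groups and in 9 lists of related genes (rows); points are genes, coloured where limma adjusted p was below 0.05, and vertical bars are medians. The medians are 0.43 and 0.19 for the synthetases, 0.00 for RNA polymerase III transcription and 0.91 for ATF4 and its targets.

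Some markers of other cells, and genes of the G2/M phase of the cell cycle, differed between the groups as well. Of all tested genes, 4.97% rose and 3.87% fell. Of 10 plasma cell markers 8 were tested, of which 3 fell and 1 rose, and their summed level was 696 to 947 FPKM in controls against 506 to 536 FPKM. Jchain, the joining chain of secreted IgM and IgA, read 36.9 to 75.2 FPKM in controls and 0 to 0.233 FPKM after deletion. Tnfrsf17, a plasma cell receptor gene, was listed at 0 in the 3 Skiv2l-deleted libraries. Its controls read only 0.348, 0.397 and 0.538 FPKM, below the expression filter, so it was not tested. The 3 plasma cell markers that fell were Jchain, Igha and Sdc1. The 1 that rose was Mzb1, at 211 to 280.3 FPKM in controls against 336 to 363 FPKM. Of 7 later B cell markers 5 fell (307 to 397 against 118 to 177 FPKM), and of 10 G2/M genes 8 fell and 0 rose (1516 to 1849 against 908 to 1019 FPKM). Of 8 T and NK cell markers 1 was tested, Klrb1c, which rose, and their sums were 2.64 to 4.02 against 9.29 to 14.0 FPKM. Klrb1c alone read 2.43 to 3.61 against 9.15 to 12.4 FPKM, which is most of those sums. The untested ones read below 1 FPKM in every library, and their means differed in either direction. The part of these differences in the synthetase values was not tested. The myeloid sums of the groups overlapped (129.6 to 1264 against 82.7 to 2244 FPKM), and 0 of 7 tested myeloid markers were called. The 8 erythroid and megakaryocyte markers reached 203 FPKM in Skiv2l-deleted 2 and 3.77 to 8.95 FPKM elsewhere, and the 4 stromal and plasmacytoid dendritic markers 0.509 to 7.52 FPKM.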

How the data were processed

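Per the labels' protocols, RNA from sorted pro-B cells was column-purified and made into strand-specific mRNA libraries, 1 per mouse. The authors deposited per-gene FPKM, TPM and coverage values, per the file headers, on build GRCm38, per the submitters' processing notes. The sources used here do not name the quantification tool, and the depth was derived from the deposited coverage and FPKM of single-transcript genes (GENCODE M21). FPKM was summed per gene identifier. The 13539 genes that reached 1 FPKM in 3 or more libraries were fitted with limma 3.58.1 in R 4.3.3 (trend, genotype only) on log2(FPKM + 1), which shrinks the fold change of weakly expressed genes. P-values were adjusted by Benjamini-Hochberg over all of them and called below 0.05. The fit was tested on simulated data with independent noise in each gene and library. Those data do not hold the shared deviation of control 3 and Skiv2l-deleted 2, so they cannot vouch for the calls here. Values in every library are given for called members and their partners, and for the 3 uncalled members nearest the threshold; other uncalled genes described singly were chosen after their values were seen. TPM served as an alternative. The members and lists were chosen with earlier results of these data known. The series' design text names 3 mice per group. The search for the genes most similar in pattern is not reported, since the libraries fall into 2 groups. Protein sequences were not used here. Values of 1 mitochondrial member are not reported here, though it is included in counts, medians and sums.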

Additional observations from a re-analysis of the deposited data

How the results depend on the processing

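The 18 alternatives kept the sign of all 8 called genes, which those that only left out libraries could not have changed. Over those 144 values, 91 stayed below an adjusted p of 0.05 in limma and 53 did not. With no expression filter (28354 genes tested), 512 genes were called, among them 2 cytosolic synthetases, both higher, and 0 mitochondrial ones. In the 4 libraries, 11 cytosolic genes were called higher and 1 mitochondrial gene lower, as was 1 with median-centred values, Lars2 each time. Median centring changed the calls over all genes from 673 higher and 524 lower to 559 and 664. The mitochondrial median log2 fold change was 0.14 with a 5 FPKM filter (12 genes), 0.13 median-centred, 0.15 with quantile normalization and 0.24 in the 4 libraries. Omitting 1 library gave 179 to 1749 genes called, 0 to 9 cytosolic and 0 to 1 mitochondrial genes higher, 0 to 1 mitochondrial lower and mitochondrial medians of 0.11 to 0.25. With Lars2 left out, the mitochondrial sum went from 0.95 to 1.13 of control and the compartment ratio from 1.33-fold to 1.12-fold. The cause of these shifts was not tested. Libraries sharing a replicate number in the titles had correlations of deviations from group means of 0.094, −0.428 and −0.355. Control 3 and Skiv2l-deleted 2, both high in myeloid markers, correlated at 0.557. These values therefore cannot decide whether the numbers pair the libraries. With the replicate block 365 genes, 1 cytosolic (Sars, adjusted p = 0.033 in limma) and 0 mitochondrial synthetases were called.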
